A study of Medicago sativa with 24 samples.

Results

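The 6 genes described here encode chlorophyll a/b binding proteins of alfalfa leaves: TC183902, TC177786, TC195187, TC180095, TC188202 and TC179482. They are 6 of the 41527 genes on the arrays. They were selected on measured values of these same arrays, because the ploidy levels of the hybrids differed in them while hybrids and parents did not pass the test, and because they belonged to functional terms enriched among such genes. Their difference between ploidy levels is therefore given below as a description, without a test.

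Chlorophyll a/b binding proteins form the light-harvesting antennae of the photosystems in the thylakoid membrane of the chloroplast. They bind chlorophylls and carotenoids and pass the absorbed light energy to the reaction centres. They are encoded in the nucleus by a family of closely related genes, their precursors are imported into the chloroplast, and their transcripts in green leaves are abundant and respond to light and to the time of day. The study annotated TC183902 and TC188202 as homologues of a chlorophyll a/b binding protein of M. sativa, and TC177786 as a homologue of a light-harvesting chlorophyll a/b-binding protein precursor of Nicotiana sylvestris. TC195187, TC180095 and TC179482 were annotated as homologues of a Glycine max precursor of the type I antenna proteins of photosystem II. In the protein search of the study, TC183902, TC177786, TC195187 and TC188202 had the same M. sativa protein as their best hit, and TC180095 and TC179482 shared a protein of M. truncatula. Transcripts of such near-identical genes may bind to the probes of more than 1 of them, which was not tested, and the 6 profiles cannot be taken as separate measurements of 6 genes.

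Transcription was measured in young, fully expanded leaves of 8 genotypes of M. sativa. Tetraploid full sibs (S29-4x, S48-4x, S60-4x) came from the union of 2n eggs and 2n pollen (bilateral sexual polyploidization), diploid full sibs (S8-2x, S16-2x, S24-2x) came from the same cross, and the diploid parents were PG-F9 (M. sativa subsp. falcata, the seed parent) and 12P (a pollen parent derived from subsp. coerulea and subsp. falcata). Each genotype was a single plant multiplied by cuttings and grown in a screen house, so that a genotype is 1 genetic individual, and each of its 3 replicates was a bulk of leaves of 2 cloned plants. The probes were designed on M. truncatula sequences, so a difference in transcript level and a difference in allele sequence under the probes cannot be told apart, and in whole leaves fewer green cells and less RNA per cell cannot be told apart either.

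Median log2 intensities of the 24 arrays lay between 8.96 and 9.04. On each array 66.0% to 79.1% of the genes exceeded its highest negative control, of 11 such entries. The highest negative control lay between 5.96 and 6.63 in the 4x hybrids, between 5.90 and 6.51 in the 2x hybrids and between 6.22 and 7.01 in the parents. In PG-F9 it was 6.72, 7.01 and 6.88, above that of every other array, and in 12P it was 6.31, 6.22 and 6.35. TC177786, TC195187, TC180095, TC188202 and TC179482 exceeded it on 24 of 24 arrays, by at least 3.09 on the log2 scale. TC183902 was the exception: it exceeded the highest negative control on 9 of 9 arrays of the 4x hybrids, on 2 of 9 of the 2x hybrids and on 4 of 6 of the parents, so its low values are limited by the background. In the parents these were replicate 1 of PG-F9 and all arrays of 12P. Of 3 markers of green leaf, TC174046 (PsaD, a subunit of photosystem I) and TC199696 (another chlorophyll a/b-binding protein) exceeded the highest negative control on 24 of 24 arrays. TC198142, annotated as a small subunit of Rubisco, the enzyme that fixes carbon dioxide, exceeded it on 9 of 9 arrays of the 4x hybrids, 3 of 9 of the 2x hybrids and 3 of 6 of the parents.

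The 6 genes were higher in the 4x than in the 2x hybrids. The log2 differences of the 5 genes above the negative controls on all arrays were between 1.06 and 1.70, with a median of 1.17. TC183902 had 1.72 as measured and 1.07 with lower values set to the highest negative control of the array, so that the median of the 6 genes was 1.35 as measured and 1.16 in this way. Over all genes the median of this difference was -0.01. TC177786 had log2 intensities between 13.07 and 14.31 in the 4x hybrids (median 13.53), against 11.00 to 12.91 in the 2x hybrids (median 11.74). TC195187 lay between 13.27 and 14.41 in the 4x hybrids (median 13.68), against 11.50 to 12.71 in the 2x hybrids (median 12.13). In both genes the arrays of the ploidy levels did not overlap. TC183902 lay between 6.52 and 9.04 in the 4x hybrids (median 7.34), against 4.85 to 6.44 in the 2x hybrids (median 5.76), again without overlap but near the negative controls.

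In the other 3 genes some arrays overlapped. TC180095 lay between 12.14 and 13.32 in the 4x hybrids (median 13.11), against 10.18 to 12.68 in the 2x hybrids (median 11.96). TC188202 lay between 12.37 and 13.73 in the 4x hybrids (median 13.02), against 11.13 to 12.57 in the 2x hybrids (median 11.49). TC179482 lay between 13.19 and 14.32 in the 4x hybrids (median 13.80), against 11.66 to 13.26 in the 2x hybrids (median 12.58). For each of these genes, 6 or 7 of the 9 arrays of the 4x hybrids were above every array of the 2x hybrids.

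A call required an adjusted p under 0.05 in limma and an absolute log2 difference over 1. By their selection the 6 genes fulfil it between the 4x and 2x hybrids, where 1.47% of all genes do. The gene nearest to the threshold among them was TC179482, at 1.06. Among the other photosynthesis genes described below, TC199696 had a log2 difference of 1.08 and was not among the genes of the enriched terms, and TC182622 lay outside at 0.56. In 3 of the 6 genes, and in 0.595% of all genes, every 4x array exceeded every 2x array. In 6 of the 6, and in 8.78% of all genes, every 4x genotype mean exceeded every 2x genotype mean. These shares are given beside counts that the selection itself shaped.

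**Figure D1:**
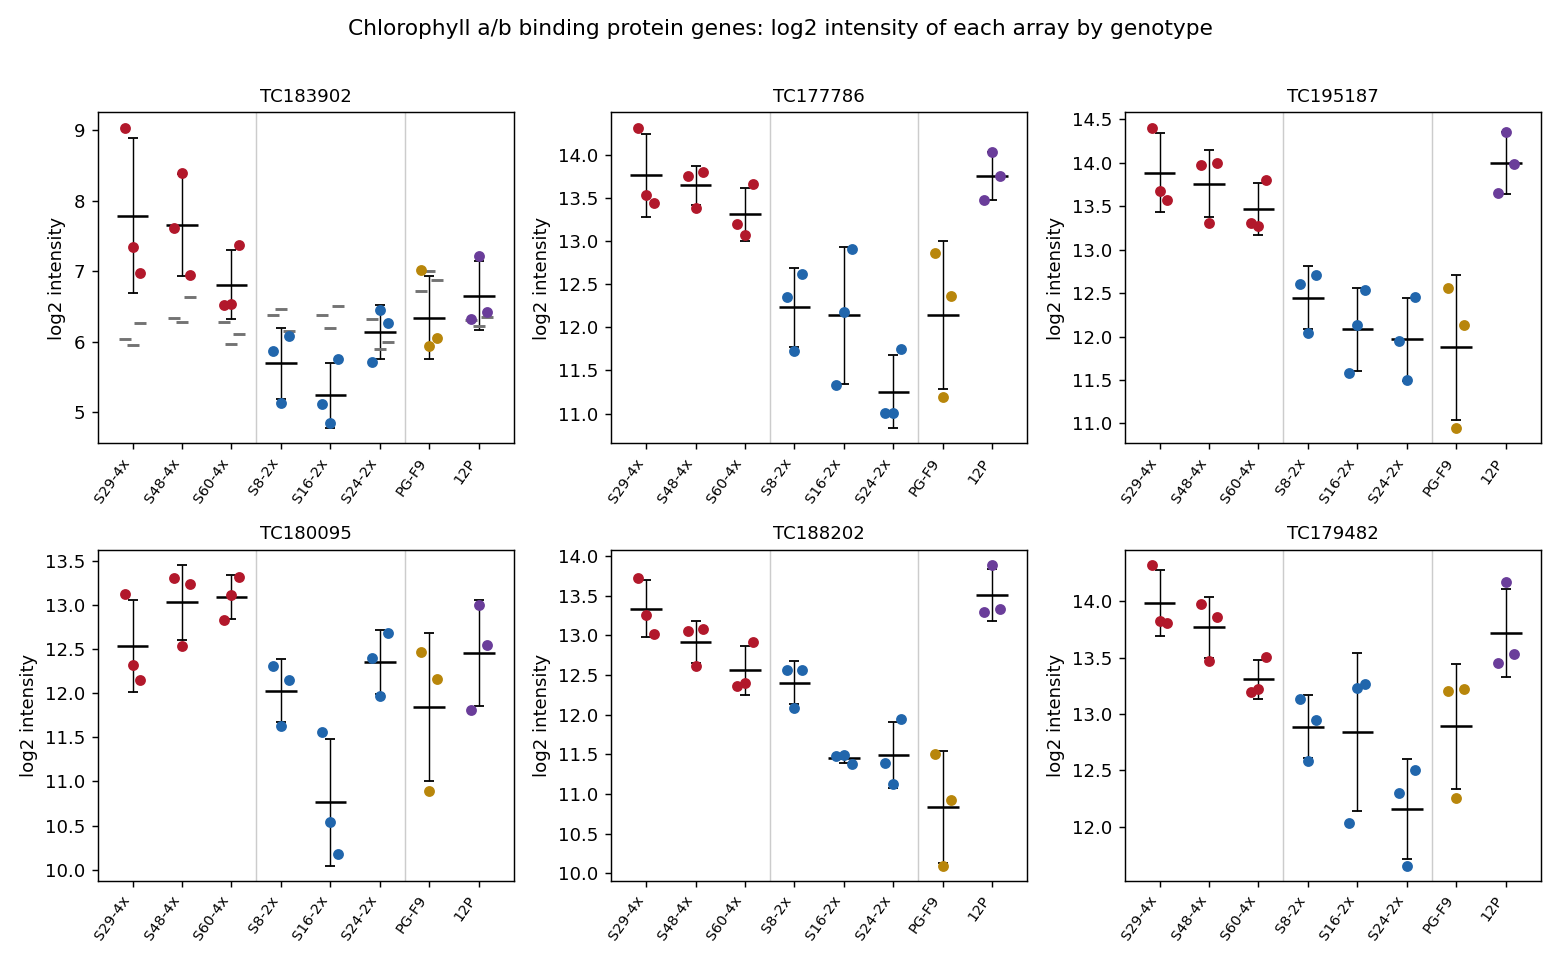
Log2 intensity (vertical axes) of the 6 chlorophyll a/b binding protein genes in the 8 genotypes (horizontal axes). Points are arrays, horizontal bars are genotype means and whiskers are 1 SD (n = 3), and the short grey marks for TC183902 are the highest negative control of each array. Means of the 4x hybrids lie above those of the 2x hybrids in all 6 panels, S16-2x is lowest for TC180095, and 12P lies far above PG-F9 for TC177786, TC195187 and TC188202.

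Among the genotypes, S29-4x or 12P had the highest mean of 5 of the 6 genes, and the lowest mean was that of PG-F9, S16-2x or S24-2x. TC177786 averaged 13.76 ± 0.48 in S29-4x, 13.64 ± 0.22 in S48-4x and 13.31 ± 0.31 in S60-4x, against 12.23 ± 0.46 in S8-2x, 12.14 ± 0.79 in S16-2x and 11.25 ± 0.43 in S24-2x (SD, n = 3 each), while the parents averaged 12.14 ± 0.86 (PG-F9) and 13.75 ± 0.28 (12P). In the order of its 8 means, the arrays of neighbouring genotypes overlapped at every step but the one between S60-4x and S8-2x, which measured 1.08. TC195187 had its only step without overlap at the same place, of 1.02 between 13.46 ± 0.30 in S60-4x and 12.45 ± 0.36 in S8-2x. The upper 4 genotypes of both genes were thus 12P and the 4x hybrids, and the lower 4 were PG-F9 and the 2x hybrids.

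TC188202 had its only step without overlap in another place, between S8-2x (12.40 ± 0.27) and S24-2x (11.49 ± 0.42). Its S8-2x arrays, at 12.56, 12.09 and 12.57, overlapped those of S60-4x, at 12.37, 12.40 and 12.92. TC180095 departed most from the other genes: it was highest in S60-4x (13.08 ± 0.25), lowest in S16-2x (10.76 ± 0.72), and its mean in S24-2x (12.35 ± 0.36) was next to those of 12P and S29-4x (12.45 ± 0.60 and 12.53 ± 0.52). TC180095, TC179482 and TC183902 showed no step without overlap. Within a genotype the 6 genes varied by 0.38 to 0.63 between replicates (SD on the log2 scale), against a median of 0.25 over all genes, so that between 83.2% and 98.7% of all genes varied less than each of them.

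The comparison of PG-F9 with 12P asks how far the parents differed in these genes. It took no part in the selection as a contrast, although the spread between the parents entered the comparisons of hybrids with parents that the genes did not pass. TC188202 had log2 intensities of 11.50, 10.09 and 10.92 in PG-F9, against 13.30, 13.89 and 13.34 in 12P. TC195187 had 12.55, 10.94 and 12.14 in PG-F9, against 13.65, 14.35 and 13.99 in 12P. TC177786 had 12.86, 11.19 and 12.36 in PG-F9, against 13.47, 14.03 and 13.75 in 12P. In these 3 genes every array of PG-F9 was below every array of 12P.

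All 3 were called lower in PG-F9 with limma. The log2 difference (PG-F9 minus 12P) was -2.67 for TC188202 (SE 0.35, adjusted p = 0.00241), a level 6.37-fold lower in PG-F9. It was -2.12 for TC195187 (SE 0.41, adjusted p = 0.0106), or 4.34-fold lower in PG-F9, and -1.61 for TC177786 (SE 0.40, adjusted p = 0.0293), or 3.06-fold lower in PG-F9. The call of TC177786 was lost with the replicate number as a block (adjusted p = 0.0516), with a floor on low values (0.0580) and without replicate 3 of PG-F9 (0.0535) or replicates 2 or 3 of 12P (0.0933 and 0.0757). The other 2 calls held in every alternative, with adjusted p up to 0.0113 for TC188202 and up to 0.0408 for TC195187 with limma.

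The other 3 genes did not pass the test between the parents. TC179482 had 13.21, 12.25 and 13.22 in PG-F9, against 13.45, 14.17 and 13.53 in 12P, which do not overlap, with a log2 difference of -0.83 (SE 0.31, limma adjusted p = 0.108). TC180095 had 12.46, 10.89 and 12.16 in PG-F9, against 11.81, 13.00 and 12.55 in 12P, with a difference of -0.61 (SE 0.46, limma adjusted p = 0.393). TC183902 had 7.02, 5.94 and 6.06 in PG-F9, against 6.32, 7.22 and 6.42 in 12P, with a difference of -0.31 (SE 0.35, limma adjusted p = 0.578), and was partly below the negative controls. Thus 3 of 6 genes were called, all lower in PG-F9, where 11.1% of all genes were called in either direction, and 4 of 6 had every PG-F9 array below every 12P array, against 20.9% of all genes. The median difference of the 6 genes was -1.22. Replicate 2 of PG-F9 was the lowest PG-F9 array in all 6 genes, 0.64 to 0.95 below the genotype mean in 5 of them and 0.40 below it in TC183902. It also had the highest negative control of all arrays and the lowest share of genes above it, 66.0%. That share was 69.4% and 67.4% in replicates 1 and 3 of PG-F9, against 73.5% to 75.6% in 12P. The part of this in the difference between the parents was not tested. Without replicate 2 of PG-F9 the difference between the parents was -1.14 for TC177786, -1.65 for TC195187 and -2.30 for TC188202, which were still called. It was -0.51 for TC179482, -0.14 for TC180095 and -0.12 for TC183902. Over all 6 ways to leave out 1 parental array, the difference ranged from -0.99 to -0.51 for TC179482, from -0.93 to -0.14 for TC180095 and from -0.65 to -0.03 for TC183902.

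The hybrids were then placed between the parents, as a description, since the selection used the difference between ploidy levels. On the log2 scale, 0 stands for the level of PG-F9 and 1 for that of 12P, and the position was computed for the 3 genes called between the parents. TC195187 stood at 0.95 in S29-4x, 0.89 in S48-4x and 0.75 in S60-4x, against 0.27 (S8-2x), 0.10 (S16-2x) and 0.04 (S24-2x). TC188202 stood at 0.94 in S29-4x, 0.78 in S48-4x and 0.65 in S60-4x, and at 0.59 in S8-2x, 0.23 in S16-2x and 0.24 in S24-2x. TC177786 stood at 1.01, 0.93 and 0.73 in S29-4x, S48-4x and S60-4x, and at 0.06, 0.00016 and -0.55 in S8-2x, S16-2x and S24-2x. The 4x hybrids were therefore nearer to the pollen parent 12P in all 3 genes, and the 2x hybrids nearer to the seed parent PG-F9 except for TC188202 in S8-2x. The low end of the scale depended on the PG-F9 arrays: the median position over the 3 genes was 0.89 for the tetraploids and 0.10 for the diploid sibs, and the value of the 2x hybrids was -0.16 without replicate 2 of PG-F9 and 0.23 without its replicate 1.

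For comparison, 2400 genes were called lower in PG-F9 than in 12P. Their median position was 0.70 in S29-4x, 0.41 in S48-4x and 0.65 in S60-4x, against 0.67 (S8-2x), 0.62 (S16-2x) and 0.53 (S24-2x). The medians of the 3 chlorophyll a/b binding protein genes were 0.95, 0.89 and 0.73 in S29-4x, S48-4x and S60-4x, above the upper quartile of those genes in S29-4x (0.90) and S48-4x (0.73) but not in S60-4x (0.84). In the 2x hybrids they were 0.27, 0.10 and 0.04 in S8-2x, S16-2x and S24-2x, below the lower quartile of those genes (0.39, 0.39 and 0.26 in the same order). The 3 genes were selected for a difference between ploidy levels and the 2400 genes were not. Selection thus set the 4x and 2x positions of the 3 genes apart in advance, and no conclusion is drawn from their place among the quartiles.

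**Figure D2:**
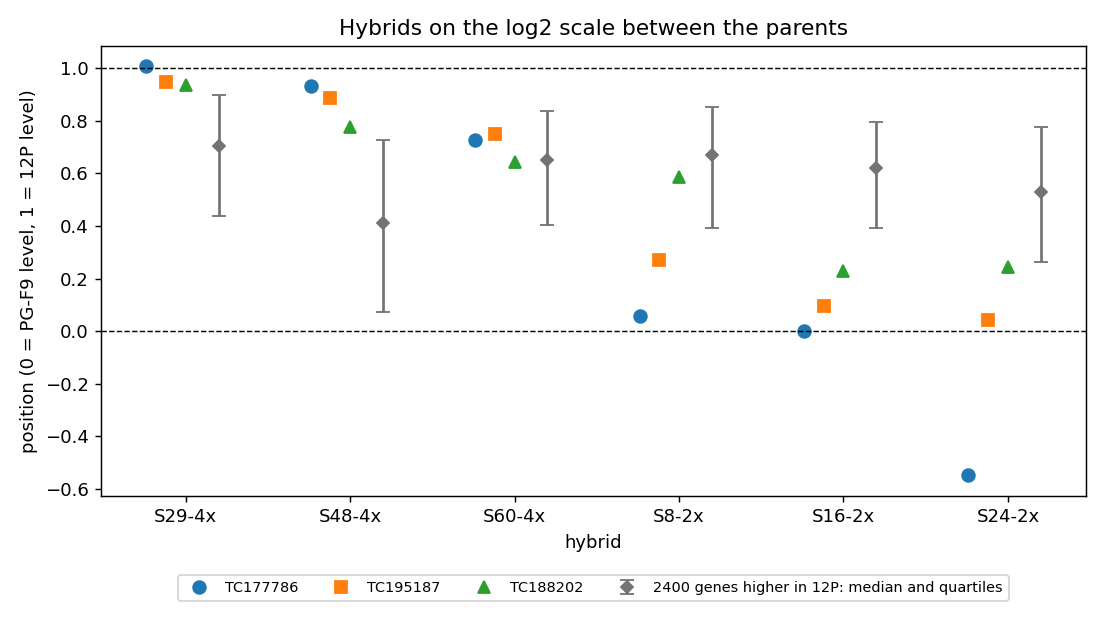
Position of the 6 hybrids (horizontal axis) on the log2 scale between PG-F9, at 0, and 12P, at 1 (vertical axis), for TC177786, TC195187 and TC188202. Grey diamonds and whiskers are the median and quartiles of the 2400 genes called lower in PG-F9. The 3 genes lie between 0.65 and 1.01 in the 4x hybrids and between -0.55 and 0.59 in the 2x hybrids.

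Relative to the mean of both parents, 6 of 6 genes were higher in each 4x hybrid and 4 of 6 were lower in each 2x hybrid. The smallest excess was that of TC179482 in S60-4x, 0.00074 on the log2 scale, and the exceptions in the 2x hybrids were TC180095 in S24-2x (0.20) and TC188202 in S8-2x (0.23). Of all genes, 1.64% were above this mean in all 3 4x hybrids and below it in all 3 2x hybrids, as 4 of the 6 genes were. Selection for a difference between ploidy levels without a call against the parents shaped these counts. It also shaped the counts of genes above or below both parents that follow. TC180095 exceeded the means of both parents in all 3 4x hybrids, by 0.08 in S29-4x, 0.58 in S48-4x and 0.63 in S60-4x over 12P, which was the higher parent. Over all genes, 27.2% to 31.5% had a mean above both parents in a given 4x hybrid, as 4, 3 and 2 of the 6 genes had in S29-4x, S48-4x and S60-4x. TC179482 had means below both parents in all 3 2x hybrids, with differences from PG-F9 of -0.0055 in S8-2x, -0.05 in S16-2x and -0.74 in S24-2x. TC177786 was below both parents in S24-2x, with a difference of -0.88 from PG-F9, and TC180095 in S16-2x, with a difference of -1.08 from PG-F9. In the 2x hybrids, 2, 3 and 3 of the 6 genes were below both parents (S8-2x, S16-2x and S24-2x), beside 28.6% to 32.1% of all genes. TC183902 was above both parents in the 4x and below both in the 2x hybrids, at levels near the negative controls.

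Taken as groups, the medians of the 6 log2 differences were 0.75 for 4x hybrids minus parents and -0.72 for 2x hybrids minus parents, beside medians of -0.02 and -0.01 over all genes. By the selection none of the 6 genes passed the call in these comparisons, where 1.36% and 0.183% of all genes did. The median of 4x hybrids minus parents was 0.40 when the intensities were averaged on the linear scale. Both medians moved with the parent that was left out. Against 12P alone they were -0.11 for the 4x and -1.41 for the 2x hybrids, and against PG-F9 alone 1.25 for the 4x and -0.19 for the 2x hybrids. The median over the 6 genes thus differed least from 12P in the 4x hybrids and least from PG-F9 in the 2x hybrids.

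Full-sib hybrids of the same ploidy level were compared in pairs to see whether the genes varied within a ploidy level. No gene of the 6 was called in any of the 6 pairs with limma fitted on only the arrays compared. Among all genes, 3.16% were called between S29-4x and S48-4x, 1.54% between S29-4x and S60-4x and 3.24% between S48-4x and S60-4x. The shares were 2.51% between S8-2x and S16-2x, 3.42% between S8-2x and S24-2x and 0.864% between S16-2x and S24-2x. At an unadjusted p under 0.05 in limma, 0, 2 and 1 of the 6 genes passed in these 4x pairs in the order given, beside 19.6%, 19.6% and 19.5% of all genes. In these 2x pairs it was 2, 3 and 2 of the 6 genes, beside 20.9%, 25.3% and 22.6% of all genes.

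The 2 log2 differences of largest size, both of TC180095, were in the 2x hybrids. TC180095 had 11.56, 10.54 and 10.18 in S16-2x, against 12.40, 11.96 and 12.68 in S24-2x, which do not overlap, with a log2 difference of -1.59 (SE 0.37, limma adjusted p = 0.0864). Its values in S8-2x were 12.30, 11.62 and 12.15, also above all of S16-2x, with a difference of 1.26 (S8-2x minus S16-2x, SE 0.36, limma adjusted p = 0.104). With all 24 arrays in 1 limma fit the difference between S16-2x and S24-2x was called (adjusted p = 0.0165), as it was without replicate 1 of S16-2x (limma adjusted p = 0.0278). It was also called with trend and robust moderation, but not in the other 11 alternatives, with limma adjusted p up to 0.250. TC177786 had 12.35, 11.72 and 12.62 in S8-2x, against 11.01, 11.00 and 11.74 in S24-2x, with a difference of 0.98 (SE 0.29, limma adjusted p = 0.0985). TC188202 had 12.56, 12.09 and 12.57 in S8-2x, against 11.47, 11.49 and 11.38 in S16-2x, a log2 difference of 0.95 (SE 0.17, limma adjusted p = 0.0251) that missed the call by its size in this fit. Without replicate 2 of S8-2x it was 1.11 and was called (limma adjusted p = 0.0296). Its limma adjusted p was 0.0513 with a replicate block and 0.101 without replicate 1 of S8-2x, so the p missed the call there too. Against S24-2x, with 11.39, 11.13 and 11.94, the log2 difference of TC188202 was 0.91 (S8-2x minus S24-2x, SE 0.24, limma adjusted p = 0.0715), and 1.14 without replicate 3 of S24-2x, which was called (limma adjusted p = 0.0470). It was not called in the other 13 alternatives, with limma adjusted p up to 0.186.

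Among the 4x hybrids the order of the means was the same in 5 of the 6 genes, S29-4x above S48-4x above S60-4x. TC180095 had the reverse order. The differences between S29-4x and S60-4x were between 0.42 and 0.98 on the log2 scale in those 5 genes and -0.56 in TC180095, with limma adjusted p between 0.0923 and 0.420. Among the 2x hybrids, S8-2x had the highest mean in 4 genes and S24-2x in TC180095 and TC183902.

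The replicates of a genotype share its genome, so the deviation of each array from its genotype mean shows how the genes varied together apart from genotype and ploidy. In 12P, S29-4x and S60-4x the same array was highest in 6 of 6 genes. In S29-4x this was replicate 1, at 0.61 above the genotype mean on average over the 6 genes, and in 12P replicate 2, at 0.43. Replicate 2 was the lowest array in 6 of 6 genes in S8-2x and in PG-F9, at -0.42 and -0.77 on average. S16-2x differed: its replicate 1 was 0.80 above the genotype mean for TC180095 but 0.81 below it for both TC177786 and TC179482.

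**Figure D3:**
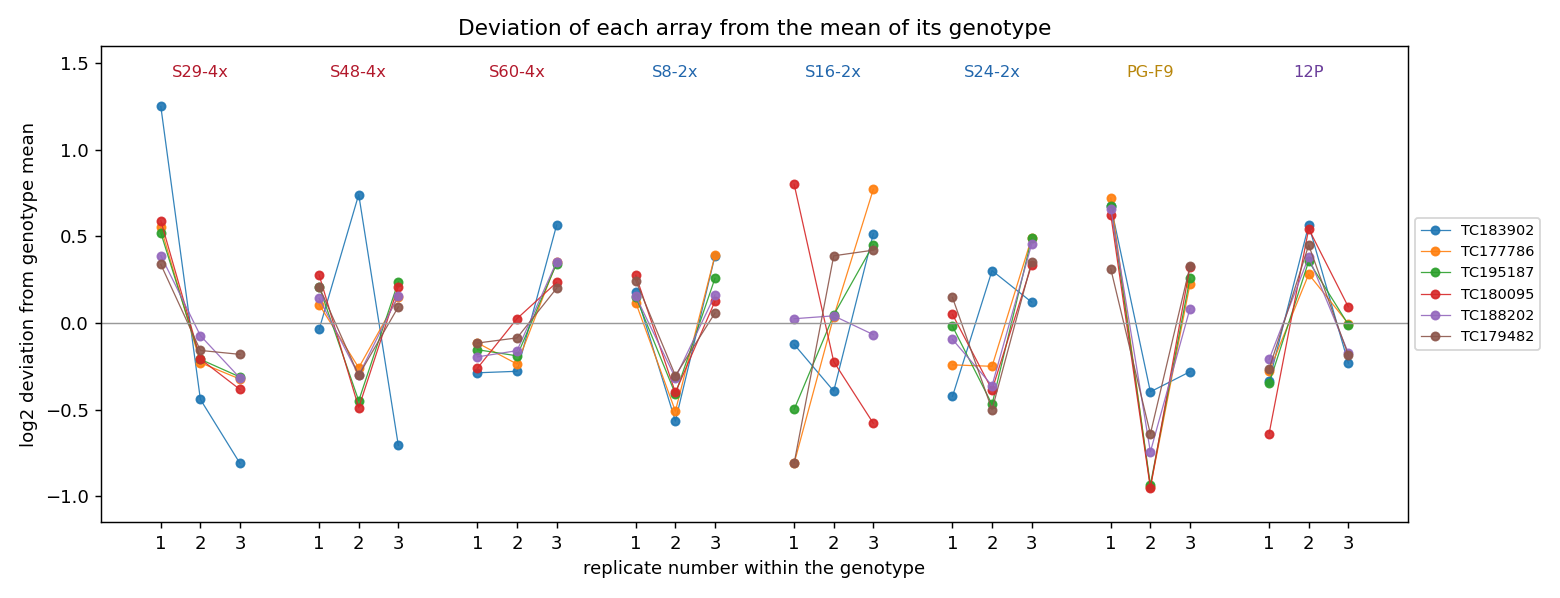
Log2 deviation of each array from the mean of its genotype (vertical axis) for the 6 genes, by genotype and replicate number (horizontal axis). Each coloured line is a gene, and lines join the replicates of a genotype only to ease reading, since replicates have no order. The lines run together in most genotypes, TC180095 runs against TC177786, TC195187 and TC179482 in S16-2x, and TC183902 departs in S48-4x and S24-2x.

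Over the 24 arrays, Pearson's r between the deviations of 2 genes ranged from 0.35 to 0.95 over the 15 pairs, with a median of 0.63, and Spearman's rho from 0.37 to 0.97 with a median of 0.61. These values are descriptions: the points share leaf bulks, RNA and arrays, and the genes share sequence. The mean r over all pairs of genes on the arrays was 0.00256. The closest pair was TC177786 and TC195187 (r = 0.95, rho = 0.97), whose best hit was the same M. sativa protein. A shared hit did not always go with a high r. With TC177786 and TC195187, r was 0.79 and 0.90 for TC188202 and 0.59 and 0.50 for TC183902, which have that hit. It was 0.87 and 0.90 for TC179482, which has another. TC195187 correlated at 0.90 with both TC188202 and TC179482. The median over the pairs was 0.64 when each pair was taken without 2 arrays. These were the arrays on which the first-listed gene of that pair deviated most, so they changed from pair to pair.

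The low values came from 2 genes. TC183902, the gene near the negative controls, had r between 0.35 and 0.59 with the others. TC180095 had r of 0.44 with TC177786 and 0.40 with TC179482, the gene with which it shared its best protein hit, but 0.83 with TC188202. Without the 3 arrays of S16-2x the values of TC180095 were 0.91 with TC177786, 0.93 with TC179482 and 0.92 with TC188202 over 21 arrays, and the 10 pairs that do not involve TC183902 ranged from 0.86 to 0.97. With S16-2x those 10 pairs ranged from 0.40 to 0.95. The median over all 15 pairs was 0.90 without replicate 1 of S16-2x alone. The low values of TC180095 with TC177786 and TC179482 thus rested on the arrays of S16-2x. With TC183902 its r was 0.36 over the 24 arrays and 0.49 without S16-2x.

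**Figure D4:**
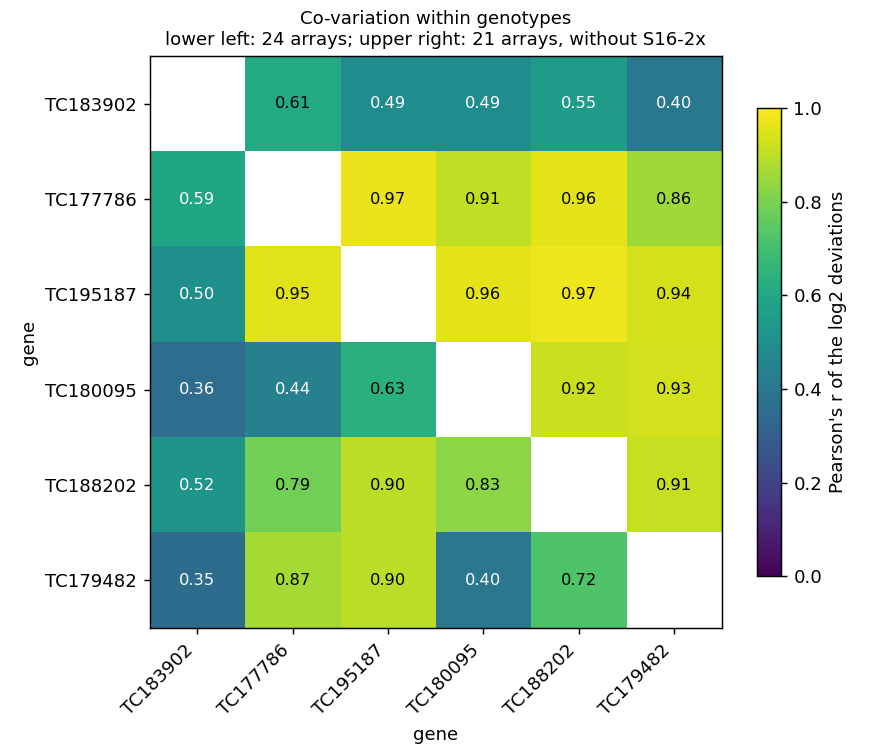
Pearson's r between the log2 deviations of the genes from their genotype means (colour and printed values), with genes on both axes. The lower left holds all 24 arrays and the upper right the 21 arrays without S16-2x, where r between TC180095 and TC179482 is 0.93 in place of 0.40.

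Array-wide measures moved little with these deviations. The mean deviation of the 6 genes had r = 0.22 with the median log2 intensity of the array, r = -0.30 with the mean of its negative controls and r = 0.28 with the percentage of genes that exceeded all its negative controls, each as deviations from the genotype mean over 24 arrays (rho = 0.23, -0.31 and 0.22 in that order). Their part in the co-variation of the genes was not tested.

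Over the 24 arrays with the differences between genotypes left in, r ranged from 0.45 to 0.96 over the 15 pairs (median 0.71) and rho from 0.53 to 0.98 (median 0.76). Since the genes were selected for a difference between ploidy levels, r was also taken within each level. Within the 9 arrays of the 4x hybrids r ranged from 0.04 to 0.97 (median 0.64), and within the 9 arrays of the 2x hybrids from -0.46 to 0.90 (median 0.42). The lowest values of the 4x hybrids were those of TC180095 with TC188202 (0.04), TC183902 (0.05) and TC179482 (0.07), where the genotype means are left in and TC180095 had the reverse order of the genotypes. The negative values of the 2x hybrids were those of TC180095 with TC177786 (-0.46) and TC179482 (-0.45), and of TC183902 with TC179482 (-0.28) and TC177786 (-0.05). TC177786, TC195187 and TC179482 stayed close to each other at both levels, at 0.90 to 0.97 in the 4x and 0.83 to 0.90 in the 2x hybrids.

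The genes most alike to the 6 were sought among the other 41521 genes by Pearson's r with the mean of the 6 standardized profiles. TC201556 was the closest both over the 24 arrays (r = 0.94) and in the deviations from the genotype means (r = 0.93). It averaged 14.76 ± 0.26 in S29-4x, 14.77 ± 0.05 in S48-4x and 14.57 ± 0.16 in S60-4x, against 14.27 ± 0.29 in S8-2x, 14.04 ± 0.27 in S16-2x and 13.77 ± 0.31 in S24-2x, while the parents had 13.80 ± 0.51 in PG-F9 and 14.82 ± 0.15 in 12P (SD, n = 3 each). Over the 24 arrays it was followed by TC186902, TC187996, TC181610 and TC173450 (r between 0.89 and 0.90), and in the deviations by TC180234, TC195064, TC177059 and TC199151 (r between 0.90 and 0.93). Of these 9 genes only TC187996 had an annotation in the sources used here, as similar to a grape sequence without a named function. An r of at least 0.8 was reached by 95 other genes (0.229%) over the 24 arrays and by 41 (0.0987%) in the deviations.

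The other photosynthesis genes considered were TC199696, annotated as a chlorophyll a/b-binding protein of pea, TC199557, with a short match to an algal light-harvesting complex protein, TC174046 (PsaD), TC198142 (Rubisco small subunit) and TC182622 (similar to THYLAKOID FORMATION1, a protein of thylakoid biogenesis). All were taken by annotation from the study's list of differentially expressed genes, so they too were selected on these arrays. TC199696 came closest to the 6 genes, as the 6th of the other genes in both rankings (r = 0.89 over the 24 arrays and 0.86 in the deviations). It averaged 14.68 ± 0.42 in S29-4x, 14.37 ± 0.22 in S48-4x and 14.05 ± 0.25 in S60-4x, against 13.68 ± 0.22 in S8-2x, 13.38 ± 0.56 in S16-2x and 12.80 ± 0.34 in S24-2x, while the parents had 12.51 ± 0.42 in PG-F9 and 14.90 ± 0.12 in 12P (SD, n = 3 each). The same parent was thus higher as for TC188202, TC195187 and TC177786. TC198142 had r = 0.71 over the 24 arrays and 0.65 in the deviations, TC174046 0.44 and 0.40, TC182622 0.37 and 0.13, and TC199557 0.12 and 0.31.

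Between the parents, 4 of these 5 genes were called with limma, 3 lower in PG-F9 and 1 higher, where 11.1% of all genes were called in either direction. The source of the 5 genes, a list of differentially expressed genes, may have shaped this count. TC199696 was lower in PG-F9 by a log2 difference of -2.39 (SE 0.22, limma adjusted p = 0.000528) and TC199557 by -1.58 (SE 0.35, limma adjusted p = 0.0174). TC198142 exceeded the negative controls on 0 of 3 arrays of PG-F9, at a mean of 6.06, and on 3 of 3 of 12P, at a mean of 9.05. Against the highest negative control of each PG-F9 array it was at least 4.53-fold lower in PG-F9 (limma adjusted p = 0.00118 on the measured values). TC174046 was higher in PG-F9, with 14.02 ± 0.13 in PG-F9 and 12.57 ± 0.21 in 12P (SD, n = 3 each), a difference of 1.45 (SE 0.16, limma adjusted p = 0.00101). TC174046 thus differed between the parents in the direction opposite to TC188202, TC195187 and TC177786, the 3 of the 6 chlorophyll a/b binding protein genes that were called there. Between the 4x and the 2x hybrids, TC199696 and TC174046 had log2 differences of 1.08 and 1.29. TC198142 had 2.17, but only 3 of its 9 arrays of the 2x hybrids exceeded the negative controls, and with lower values set to the highest negative control of the array it was 1.31. TC182622 differed by 0.56 and TC199557 by -0.43 between the ploidy levels. TC174046 and TC198142 were selected with the 6 genes, and all 5 came from the study's list of differentially expressed genes, so these values are a description.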

How the data were processed

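Each deposited value is a linear intensity of a gene on an array. The authors had applied quantile normalization and RMA, which combines the probes of a gene. The file held 41538 entries for 24 arrays, each matched to its sample by label. The 11 negative controls were left out of the tests. After log2 transformation, limma 3.58.1 (R 4.3.3) fitted the unpaired 2-class comparisons that the methods of the study name, here with eBayes without trend and on only the arrays compared. For the pairs of genotypes, the numbers of called genes that the study reports were those of a fit of all 24 arrays, which is an alternative here. Benjamini-Hochberg adjustment covered 41527 genes, without a filter on low values, and a call also needed an absolute log2 difference over 1. The fit was tested on simulated data. For arrays, their number limits the precision. The rule for named genes took the 6 genes, 5 further photosynthesis genes and the 5 genes most alike in each of 2 rankings. The genes, lists and tests were chosen with earlier results of these data known. Alternatives were a second quantile normalization, median centring, a filter and a floor on low values, trend and robust moderation, a replicate block, a fit of all 24 arrays, no threshold on the difference, Spearman's rho, linear means, and leaving out each array, genotype or TC183902. Correlations were computed with scipy 1.17.1, pandas 2.3.3 and numpy 2.4.6 in Python 3.11.15, and plots with matplotlib 3.10.9. No sequence of these genes was used here.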

Additional observations from a re-analysis of the deposited data

How the results depend on the processing

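Between PG-F9 and 12P, 3 of the 6 genes were called, and 2 with a replicate block, with a floor on low values and without single arrays (range 2 to 3). The block changed no other call. Replicate numbers were not taken to pair the arrays: over all genes, same-numbered arrays of PG-F9 and 12P had deviations correlated between -0.18 and 0.13. Of the 7 pairs of genotypes, S29-4x and S60-4x came closest, at 0.07 to 0.21 for the same number against -0.17 to -0.0034 for other numbers. Between S8-2x and S16-2x, 0 genes were called, but 1 with trend and robust moderation (TC180095) and 1 with no threshold on the difference (TC188202), and 0 to 1 without single arrays. Between S16-2x and S24-2x it was 0, but 1 (TC180095) with trend and robust moderation and 1 with all 24 arrays in the fit, and 0 to 1 without single arrays. Between S8-2x and S24-2x it was 0 to 1 without single arrays, and 0 in all the alternatives run for the 4x pairs. The direction of the median difference between 4x and 2x hybrids was set by the selection on these same arrays. This median difference, 1.35, kept that direction in all alternatives and ranged from 1.29 to 1.43 without single arrays. That of 4x hybrids minus parents, 0.75, was -0.11 without PG-F9, 1.25 without 12P and 0.40 with linear means, and ranged from 0.36 (without replicate 2 of PG-F9) to 0.98 without single arrays. That of 2x hybrids minus parents, -0.72, was -1.41 without PG-F9 and -0.19 without 12P, and ranged from -0.90 to -0.50 without single arrays. The median correlation of the deviations, 0.63, ranged from 0.57 to 0.90 without single arrays. The median position of the 2x hybrids, 0.10, was 0.24 without TC177786, and 0.03 with linear intensity, and ranged from -0.16 (without replicate 2 of PG-F9) to 0.23 without single arrays. That of the 4x hybrids, 0.89, ranged from 0.82 to 0.97. With values below the negative controls set to the highest of them, the medians were 1.16, 0.68 and -0.57 for 4x minus 2x hybrids, 4x hybrids minus parents and 2x hybrids minus parents. This setting and the one without TC177786 were chosen after seeing the data. The causes of these changes were not tested. TC183902 lies near the background, which limits its differences.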
